A study of Rattus norvegicus with 65 samples.

Results

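Heart muscle cells move high-energy phosphate between mitochondria and the contractile machinery through creatine kinase, adenylate kinase and the adenine nucleotide carriers, and the transcripts of these proteins are described here in cultured rat cardiomyocytes exposed to 3 drugs. The genes were listed by symbol: Ckm, Ckb, Ckmt2, Slc6a8, Slc25a4, Slc25a5 and Ak1. Of these 7 genes, 5 have a row in the table of 14554 genes, namely Ckm (Entrez gene 24265), Ckb (24264), Slc6a8 (50690), Slc25a4 (85333) and Slc25a5 (25176). Ckmt2, the sarcomeric mitochondrial creatine kinase, and Ak1, the main cytosolic adenylate kinase of muscle, were not analysed here.

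Creatine kinases transfer phosphate between ATP and creatine, so that phosphocreatine can buffer ATP where it is spent. Ckm encodes the muscle subunit, which dominates in the mature heart, and Ckb the brain subunit, which is more prominent in the fetal heart. Cells take up creatine through the carrier encoded by Slc6a8, and the carriers encoded by Slc25a4 (ANT1, the form typical of heart and skeletal muscle) and Slc25a5 (ANT2, the form of proliferating and many other cells) exchange ADP for ATP across the inner mitochondrial membrane.

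The cells were primary cardiomyocytes of newborn rats, kept in serum-free medium overnight before exposure. They received 10 mM 5FU (5-fluorouracil), 2.5 mM Ace (acetaminophen) or 1.25 μM Dox (doxorubicin) for 6 or 24 h, and polyA RNA was sequenced. Wells of 5FU held 1% DMSO and were compared with DMSO1, which held the same DMSO without drug, while wells of Ace and Dox held 0.25% DMSO and were compared with DMSO2. There were 6 libraries each of DMSO1, 5FU and Ace and 7 each of DMSO2 and Dox at 6 h, and 6 each of DMSO1 and 5FU and 7 each of DMSO2, Ace and Dox at 24 h. Cells of several litters were pooled before plating, so the libraries are parallel cultures of a shared preparation and the p-values measure the spread between cultures, not between animals. Library totals ran from 14332827 to 25738297 estimated counts. Levels are given as CPM, which are counts relative to the TMM-scaled library total. A gene was called a DEG at an FDR below 0.01 in edgeR's quasi-likelihood test over all genes.

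Some libraries stood apart from the rest of their group. Among 10817 genes with a mean count of at least 100, library 1 of DMSO1 at 24 h had 155 genes over 1 log2 unit from the median of its group's other libraries, library 1 of 5FU at 6 h had 137, library 7 of Dox at 24 h had 137, library 3 of DMSO1 at 6 h had 117 and library 7 of Ace at 24 h had 44. The other libraries of these 5 groups had at most 42. In Dox at 6 h libraries 7 and 4 had 104 and 76, where the other 5 had at most 14. Leaving out the first 5 libraries together, an alternative chosen after seeing the data, ended no call of the 5 genes and added 6 of 95. Both of the Dox libraries of 6 h were kept in it, since the gap between the highest count and the next was too small for Dixon's ratio, and each was left out on its own, library 4 also with the others high in Ckb. Ckb was far higher in library 4 of DMSO1, library 1 of 5FU and library 4 of Dox, all at 6 h, than in the others of those groups. Library numbers only tell libraries of a group apart.

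At 24 h of Dox the muscle creatine kinase and both nucleotide carriers fell, whereas the brain creatine kinase and the creatine transporter rose. All 5 genes were called in this comparison, where 81.4% of all genes were called. At 6 h of Dox 4 of 5 were called, against 64.2% of all genes: Ckb, Slc6a8, Slc25a4 and Slc25a5, each above its control level. At 24 h of 5FU 3 of 5 were called, against 55.8%: Ckb rose, and Ckm and Slc6a8 fell. At 6 h of 5FU 1 of 5 was called, Slc25a4, against 47.9%. Under Ace 1 of 5 was called at 24 h, Ckm, which fell, against 37.2% of all genes. At 6 h of Ace edgeR called 0 of 5, against 31.7%. At an unadjusted p below 0.05 the count at 6 h of Ace was 1, and DESeq2 called 0. With so many genes called in most comparisons, these shares are not in themselves a result about the 5 genes. Of all genes called, 50.1% were higher at 24 h of 5FU, 48.8% at 24 h of Ace and 49.7% at 24 h of Dox.

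The controls were compared with each other, since they differ in DMSO. Between DMSO1 and DMSO2 edgeR called 0 of 5 at 6 h, against 16.5% of all genes, and 0 of 5 at 24 h, against 0.433%. The counts at an unadjusted p below 0.05 were 2 at each time point, and DESeq2 called 0 at both. At 6 h the log2 difference, DMSO1 minus DMSO2, was -0.19 (SE 0.072, FDR = 0.0449) for Ckm and 0.30 (SE 0.11, FDR = 0.0435) for Ckb. Without the 5 libraries that stood apart both were called, Ckm at -0.22 (FDR = 0.00458) and Ckb at 0.33 (FDR = 0.00565), and with library sizes alone Ckm was, at -0.27 (FDR = 0.00134). The difference of Ckb rested in part on library 4 of DMSO1, without which it was 0.19 (FDR = 0.216), and it was 0.18 (FDR = 0.0143) without the 3 libraries high in Ckb. Culture time without drug moved all 5: all were called between 6 and 24 h in DMSO1, against 53.8% of all genes, and in DMSO2, against 52.6%. Ckm and Slc6a8 rose and Ckb, Slc25a4 and Slc25a5 fell in each. Among the genes called across the table, the share called higher depended on scaling in several comparisons. With library sizes alone in place of TMM it went from 48.9% to 36.8% for 5FU at 6 h, from 49.1% to 33.8% for Dox at 6 h, from 48.8% to 61.4% for Ace at 24 h, from 59.9% to 29.6% between the controls at 6 h, from 31.7% to 80.7% between them at 24 h and from 51.4% to 40.6% for time in DMSO2.

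**Figure D1:**
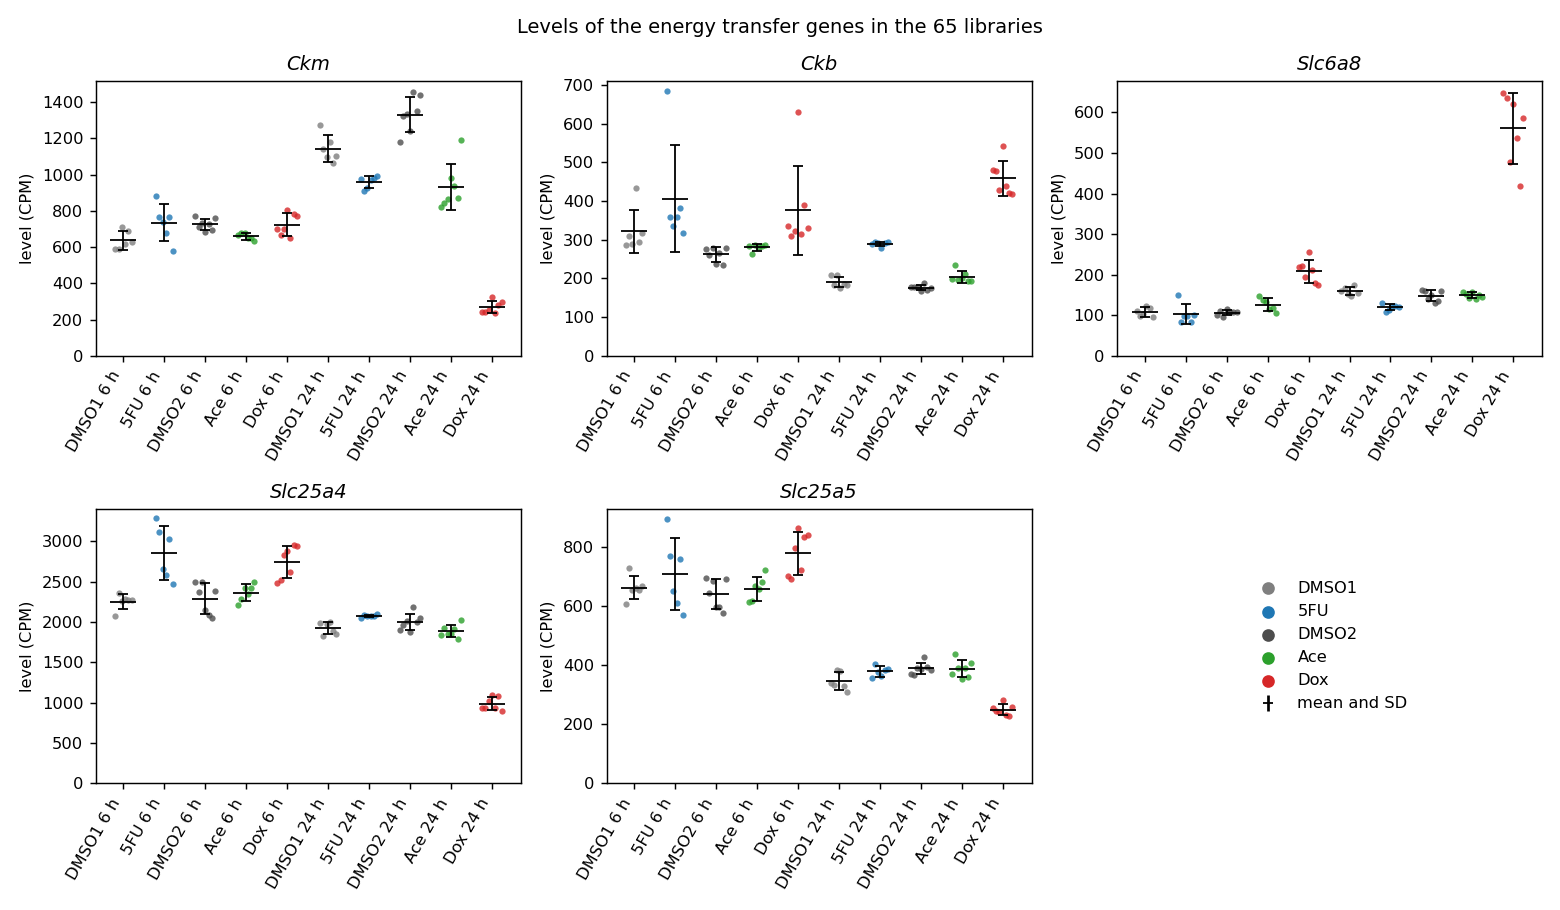
Level of each gene in CPM (y axis, from 0) in the 10 groups (x axis), with a point for each of the 65 libraries and bars for the mean and SD of the group. Ckm, Slc25a4 and Slc25a5 are lowest in Dox at 24 h (means 268, 985 and 249 CPM), where Ckb and Slc6a8 have their highest means (458 and 561 CPM).

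Ckm rose with time in both controls. It lay at 588 to 713 CPM (median 621) in DMSO1 at 6 h and at 1062 to 1276 CPM (median 1122) at 24 h. In DMSO2 it lay at 683 to 770.2 CPM (median 728) at 6 h and 1180.1 to 1456 CPM (median 1337) at 24 h. The 6 h and 24 h ranges did not overlap in either control, with every library higher at 24 h. With time the log2 fold change was 0.84 (SE 0.075, FDR = 2.34e-15) in DMSO1 and in DMSO2 0.88 (SE 0.069, FDR = 3.51e-17).

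At 6 h no drug gave a call for Ckm. The levels were 579 to 883 CPM (median 751) in 5FU, 634 to 678 CPM (median 659) in Ace and 648 to 807 CPM (median 702) in Dox. Of the 5FU libraries 4 lay above the highest DMSO1 library, 1 within the DMSO1 range and 1 below it. The Ace libraries all lay below the lowest DMSO2 library, and the Dox libraries straddled DMSO2. The log2 fold change was 0.21 (SE 0.074, FDR = 0.0147) for 5FU, with a 95% interval of 0.060 to 0.35. For Ace it was -0.14 (SE 0.072, FDR = 0.114), with an interval of -0.28 to 0.0018, and for Dox -0.0020 (SE 0.069, FDR = 0.982), with an interval of -0.14 to 0.13. With library sizes alone the value for Dox lay outside that interval, -0.16 (FDR = 0.0232), where the median of all genes was -0.15. The value for 5FU passed the threshold with DESeq2, 0.22 (FDR = 0.00731), and without library 6 of 5FU, 0.27 (FDR = 0.00152), library 3 of DMSO1, 0.24 (FDR = 0.00654), or library 5 of DMSO1, 0.23 (FDR = 0.00996). It was smaller with library sizes alone, 0.13 (FDR = 0.110), without library 1 of 5FU, 0.14 (FDR = 0.0970), and without the 3 libraries high in Ckb, 0.12 (FDR = 0.178). For Ace the value passed in a fit of the compared groups alone, -0.14 (FDR = 0.00855).

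At 24 h Ckm was lower than its control under all 3 drugs. The libraries of 5FU lay at 912 to 992 CPM (median 973), all below the lowest DMSO1 library, and those of Ace at 823 to 1193 CPM (median 871). Only library 7 of Ace reached into the DMSO2 range, and the other 6 lay at or below 984 CPM. The Dox libraries lay at 234 to 322 CPM (median 254), all below every other library of the series. Ckm fell under 5FU (log2 fold change -0.25, SE 0.074, FDR = 0.00235), under Ace (log2 fold change -0.52, SE 0.069, FDR = 4.16e-09) and under Dox (log2 fold change -2.31, SE 0.072, FDR = 1.30e-38). The call for 5FU was lost without library 2 of 5FU, -0.22 (FDR = 0.0107), or library 1 of DMSO1, -0.22 (FDR = 0.0103). Each drug's effect at 24 h was lower than its own effect at 6 h. The log2 difference, 24 h minus 6 h, was -0.46 (SE 0.11, FDR = 0.000211) for 5FU, -0.38 (SE 0.10, FDR = 0.00390) for Ace and -2.31 (SE 0.10, FDR = 2.91e-30) for Dox. The difference for Ace was not called with library sizes alone, -0.29 (FDR = 0.0148).

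In order of mean level, Ckm went from Dox at 24 h, at 268 ± 33.9 CPM (SD, n = 7), through the 5 groups of 6 h, between 637 and 735 CPM, to Ace and 5FU at 24 h, at 932 and 959 CPM, and then DMSO1 and DMSO2 at 24 h, at 1144 and 1332 ± 98.9 CPM (SD, n = 7). Neighbours in this order overlapped in range except at 2 steps, above Dox at 24 h and between 5FU and DMSO1 at 24 h. In bulk RNA a lower level cannot tell apart fewer cells that express a gene from less of its RNA per cell.

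Ckb fell with time in the controls, opposite to Ckm. In DMSO1 it lay at 287 to 433 CPM (median 302) at 6 h and 176 to 209 CPM (median 184) at 24 h. In DMSO2 it went from 236 to 279 CPM (median 266) to 167 to 188 CPM (median 177). Neither pair of ranges overlapped, and the highest value in DMSO1 at 6 h came from a single library, with the other 5 at or below 319 CPM. From 6 to 24 h the log2 fold change was -0.75 (SE 0.12, FDR = 1.12e-07) in DMSO1 and -0.57 (SE 0.11, FDR = 7.54e-06) in DMSO2.

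At 6 h Ckb was higher with Dox than with DMSO2. Dox libraries lay at 309 to 631 CPM (median 329), all above the highest DMSO2 library, and library 4 stood alone above the other 6, which ended at 389 CPM. Ckb rose by 0.52 (SE 0.11, FDR = 2.51e-05) on the log2 scale, and by 0.35 (FDR = 0.000754) without library 4. Under 5FU the libraries lay at 317 to 685 CPM (median 359), with library 1 far above the other 5, which ended at 381 CPM. That difference missed the threshold, 0.34 (SE 0.12, FDR = 0.0117), but passed it without the 3 high libraries of DMSO1, 5FU and Dox at 6 h, 0.21 (FDR = 0.00295), although its value was then smaller. Without library 1 of 5FU alone it was 0.12 (FDR = 0.315), and without the 5 libraries that stood apart 0.090 (FDR = 0.479). It also passed with DESeq2, 0.35 (FDR = 0.00640), with its size factors, 0.35 (FDR = 0.00891), with the filterByExpr filter, 0.34 (FDR = 0.00930), and without library 4 of DMSO1, 0.44 (FDR = 0.00121), or library 2, 3, 4 or 6 of 5FU (values of 0.36 to 0.40, FDR = 0.00934, 0.00553, 0.00887 and 0.00370). Ace gave 262 to 287 CPM (median 283), above DMSO2 in 5 of 6 libraries, and a log2 fold change of 0.10 (SE 0.11, FDR = 0.516).

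At 24 h Ckb was higher than the control under 5FU and Dox. It lay at 279 to 293 CPM (median 291) in 5FU and at 419 to 542 CPM (median 438) in Dox. Every 5FU library was above every DMSO1 library, and every Dox library above every DMSO2 library. Ckb rose under 5FU (log2 fold change 0.60, SE 0.12, FDR = 1.06e-05) and under Dox (log2 fold change 1.38, SE 0.11, FDR = 5.08e-18). Ace libraries, at 193 to 235 CPM (median 198), all lay above DMSO2 as well, but the difference was not called, 0.21 (SE 0.11, FDR = 0.108), with a 95% interval of -0.0040 to 0.42. Without the 3 high libraries of 6 h, left out after seeing the data, it was called at 0.22 (FDR = 0.000408), and in a fit of Ace and DMSO2 at 24 h alone at 0.21 (FDR = 0.000256).

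The effect of Dox on Ckb was larger at 24 h than at 6 h by 0.86 (SE 0.15, FDR = 1.44e-06) on the log2 scale. For 5FU the difference between time points was 0.27 (SE 0.17, FDR = 0.180), and it was called without library 1 of 5FU at 6 h, 0.48 (FDR = 0.00314), but was 0.16 (FDR = 0.422) without library 4 of DMSO1 at 6 h. It was also called without the 3 libraries high in Ckb, 0.38 (FDR = 0.000135), and without the 5 libraries that stood apart, 0.53 (FDR = 0.00164). For Ace it was 0.11 (SE 0.16, FDR = 0.674). In order of mean level, Ckb was lowest in DMSO2, DMSO1 and Ace at 24 h (176, 191 and 204 CPM), where neighbours overlapped. A very narrow gap, from 235.49 to 235.61 CPM, led to the other 7 groups. Each of these overlapped with the next, up to Dox at 24 h at 458 ± 45.2 CPM (SD, n = 7). The overlap of 5FU at 6 h with Dox at 24 h rested on library 1 of 5FU, at 685 CPM. The next 5FU library lay at 381 CPM, below the lowest of Dox at 24 h, at 419 CPM.

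Set against each other within each library, the 2 creatine kinase subunits shifted with time and with drug. The log2 ratio of Ckm to Ckb counts carries no correction for transcript length, so only its differences between groups can be read. It was 1.40 to 1.56 (median 1.45) in DMSO2 at 6 h and 2.73 to 3.04 (median 2.91) at 24 h. In DMSO1 it was 0.51 to 1.31 (median 1.01) at 6 h and 2.40 to 2.75 (median 2.60) at 24 h. The ratio was thus higher at 24 h in each control, with medians 1.46 and 1.59 apart. At 24 h it was 1.64 to 1.80 (median 1.75) in 5FU, 1.84 to 2.63 (median 2.16) in Ace and -1.0 to -0.49 (median -0.75) in Dox. All 3 ranges lay below their own control, and the difference of medians from the control was -3.67 for Dox, against -0.85 for 5FU and -0.76 for Ace. At 6 h the differences of medians were -0.043 for 5FU, with overlapping ranges, -0.23 for Ace and -0.39 for Dox, both without overlap. DMSO1 was itself lower than DMSO2 at 6 h, with a difference of medians of -0.45.

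**Figure D2:**
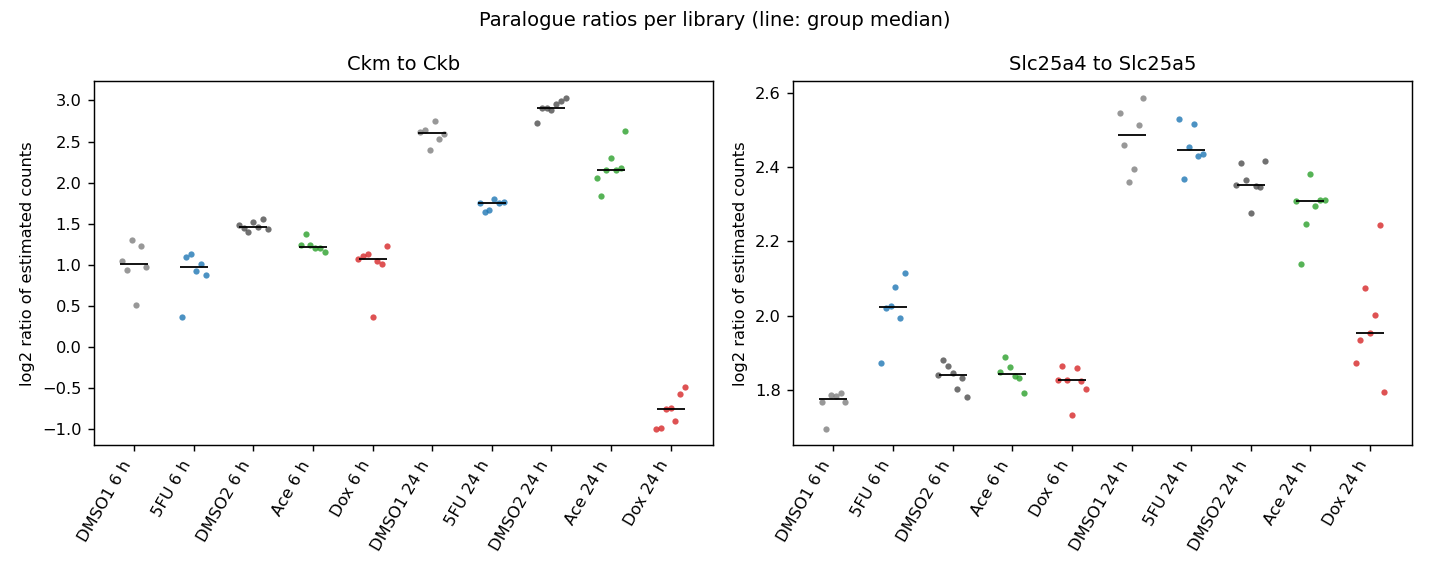
Log2 ratio of estimated counts (y axis) of Ckm to Ckb and of Slc25a4 to Slc25a5 in each of the 65 libraries, by group (x axis), with a line at the group median. The Ckm to Ckb ratio is lower in the 7 libraries of Dox at 24 h (median -0.75) than in all others.

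Slc6a8, the creatine transporter, rose with time in the controls and much further under Dox. Control levels were 94.4 to 123 CPM (median 106) in DMSO1 and 95.1 to 116 CPM (median 108) in DMSO2 at 6 h. At 24 h they were 147 to 175 CPM (median 157) in DMSO1 and 129 to 162 CPM (median 149) in DMSO2. All 24 h control libraries lay above all 6 h libraries of the same control. With time the log2 fold change was 0.56 (SE 0.10, FDR = 9.37e-07) in DMSO1 and 0.47 (SE 0.090, FDR = 6.90e-06) in DMSO2.

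With Dox Slc6a8 lay at 174 to 256 CPM (median 211) at 6 h and at 418 to 649 CPM (median 587) at 24 h. At each time point all 7 Dox libraries were above every DMSO2 library. Slc6a8 rose at 6 h (log2 fold change 0.96, SE 0.090, FDR = 8.28e-15) and at 24 h (log2 fold change 1.92, SE 0.091, FDR = 6.22e-29), and the later effect was larger by 0.96 (SE 0.13, FDR = 7.17e-10). At 24 h this was a 3.79-fold level, from 148 ± 13.7 CPM (SD, n = 7) in DMSO2 to 561 ± 87.0 CPM (SD, n = 7) in Dox.

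5FU had the opposite direction at 24 h. The libraries of 5FU lay at 109 to 129.7 CPM (median 122), all below DMSO1, and Slc6a8 fell (log2 fold change -0.41, SE 0.10, FDR = 0.000205). At 6 h the 5FU libraries lay at 82.5 to 150.2 CPM (median 97.2), 1 above, 3 within and 2 below the DMSO1 range, with library 1 highest and the other 5 at or below 101 CPM, and the difference was not called, -0.080 (SE 0.10, FDR = 0.495). Without library 1 it was -0.23 (FDR = 0.0262). The change of the 5FU effect between time points, -0.33 (SE 0.14, FDR = 0.0413), did not reach the threshold, and without library 1 of 5FU at 6 h it was -0.19 (FDR = 0.203). Ace gave no call at either time: at 6 h the libraries lay at 105 to 147 CPM (median 124), with 0.24 (SE 0.093, FDR = 0.0329) and an interval of 0.056 to 0.42. A fit of Ace and DMSO2 at 6 h alone called it, 0.24 (FDR = 0.00871). At 24 h of Ace they lay at 141 to 158 CPM (median 150.0), within the DMSO2 range, with 0.013 (SE 0.089, FDR = 0.920) and an interval of -0.16 to 0.19.

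Ordered by mean, Slc6a8 ran from 102 CPM in 5FU at 6 h to 159 CPM in DMSO1 at 24 h over 8 groups in which each range overlapped the next. Dox at 6 h, at 208 ± 28.1 CPM (SD, n = 7), overlapped DMSO1 at 24 h by its lowest library, at 174 against 175 CPM. Dox at 24 h stood clear of every other group.

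Slc25a4, the carrier form of heart muscle, fell slightly with time in the controls. In DMSO1 it lay at 2068 to 2363 CPM (median 2271) at 6 h and 1830 to 2004 CPM (median 1934) at 24 h, without overlap. In DMSO2 it lay at 2054 to 2495 CPM (median 2374) and 1880.5 to 2185 CPM (median 1997), with 6 of 7 libraries at 24 h below the lowest at 6 h. The log2 fold change was -0.23 (SE 0.057, FDR = 0.000395) in DMSO1 and -0.20 (SE 0.053, FDR = 0.000967) in DMSO2.

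Slc25a4 was higher than the control at 6 h of both 5FU and Dox. The 5FU libraries lay at 2464 to 3283 CPM (median 2842), all above DMSO1, and the Dox libraries at 2486 to 2948 CPM (median 2828), with 6 of 7 above DMSO2. It rose under 5FU (log2 fold change 0.34, SE 0.057, FDR = 5.85e-07) and Dox (log2 fold change 0.26, SE 0.053, FDR = 1.23e-05). With library sizes alone the value for Dox at 6 h was 0.11 (FDR = 0.0375) and no longer called, where the median of all genes moved to -0.15 from 0.0030. Ace libraries, at 2206 to 2495 CPM (median 2384), overlapped DMSO2, with 0.046 (SE 0.055, FDR = 0.535) and an interval of -0.061 to 0.15.

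At 24 h the Dox libraries lay at 898 to 1096 CPM (median 939), below every other library of the series, and Slc25a4 fell (log2 fold change -1.02, SE 0.053, FDR = 6.92e-27). The Dox effect thus turned from higher to lower between 6 and 24 h, with a difference of -1.28 (SE 0.075, FDR = 1.19e-23). The 5FU libraries, at 2051 to 2095 CPM (median 2075), all lay above DMSO1 within a narrow range, but the difference was not called, 0.11 (SE 0.057, FDR = 0.0840). The change of the 5FU effect between time points was not called, -0.23 (SE 0.080, FDR = 0.0132). It ranged from -0.24 to -0.16 over the other settings and passed the threshold in 4 of 24 fits with 1 library left out. It passed with DESeq2, -0.24 (FDR = 0.00576), and without library 3, 4 or 6 of 5FU or library 2 of DMSO1 at 6 h (values of -0.27 to -0.25, FDR = 0.00866, 0.00514, 0.00341 and 0.00927). Ace at 24 h, at 1795 to 2022 CPM (median 1852), gave -0.082 (SE 0.053, FDR = 0.197) with an interval of -0.19 to 0.021. By mean level the order ran from Dox at 24 h, at 985 ± 79.8 CPM (SD, n = 7), over a gap to the other 24 h groups, then the controls and Ace at 6 h, and last Dox and 5FU at 6 h, at 2746 and 2855 ± 331 CPM (SD, n = 6). Each group above the gap overlapped the next.

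Slc25a5, the carrier form of dividing cells, fell with time in both controls. It went from 607 to 729 CPM (median 659) to 308 to 385 CPM (median 336) in DMSO1. In DMSO2 it went from 577 to 695 CPM (median 645) to 368 to 429 CPM (median 388). All 24 h libraries of each control lay below its 6 h libraries. The log2 fold change was -0.94 (SE 0.071, FDR = 4.72e-18) in DMSO1 and -0.72 (SE 0.066, FDR = 7.90e-15) in DMSO2. In the rat annotation 10 genes have names that mark them as pseudogenes or like genes of Slc25a5, and 1 of Slc25a4. Of these copies 0 have a row in the table. How reads from near-identical copies were assigned cannot be seen from gene counts, so the levels of both carriers carry that uncertainty.

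Dox moved Slc25a5 the same way as Slc25a4. At 6 h the Dox libraries lay at 692 to 865 CPM (median 797), with 6 of 7 above DMSO2, and Slc25a5 rose (log2 fold change 0.28, SE 0.065, FDR = 0.000127). This call too was lost with library sizes alone, 0.13 (FDR = 0.0412). At 24 h they lay at 228 to 283 CPM (median 246), all below every other library of the series, and it fell (log2 fold change -0.64, SE 0.066, FDR = 8.56e-14), a difference from the 6 h effect of -0.92 (SE 0.093, FDR = 1.05e-13). 5FU gave 569 to 896 CPM (median 706) at 6 h and 355 to 405 CPM (median 382) at 24 h, with overlap at both times. For 5FU the log2 fold change was 0.10 (SE 0.070, FDR = 0.235) at 6 h and 0.13 (SE 0.071, FDR = 0.104) at 24 h, with intervals of -0.041 to 0.24 and -0.0092 to 0.27. Leaving out 1 library moved the 6 h value between 0.015 (FDR = 0.862), without library 1 of 5FU, and 0.15 (FDR = 0.0541), without library 6. Ace gave 613 to 721 CPM (median 662) at 6 h and 354 to 438 CPM (median 390.2) at 24 h, also overlapping DMSO2, with 0.040 (SE 0.068, FDR = 0.679) and -0.0052 (SE 0.065, FDR = 0.958). In order of mean level, Slc25a5 was lowest in Dox at 24 h, at 249 ± 18.4 CPM (SD, n = 7), followed after a gap by the other 24 h groups (346 to 389 CPM) and after another gap by the 6 h groups (641 to 779 CPM), with overlap between neighbours inside each set.

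The log2 ratio of Slc25a4 to Slc25a5 counts was higher at 24 h than at 6 h in both controls, with medians 0.71 apart in DMSO1 and 0.51 in DMSO2 and no overlap. At 6 h it was 1.87 to 2.11 (median 2.02) in 5FU and 1.70 to 1.79 (median 1.78) in DMSO1, without overlap. At 24 h it was 1.80 to 2.24 (median 1.95) in Dox and 2.28 to 2.42 (median 2.35) in DMSO2, again without overlap, so that Dox at 24 h was lower. The other 4 drug groups overlapped their controls.

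**Figure D3:**
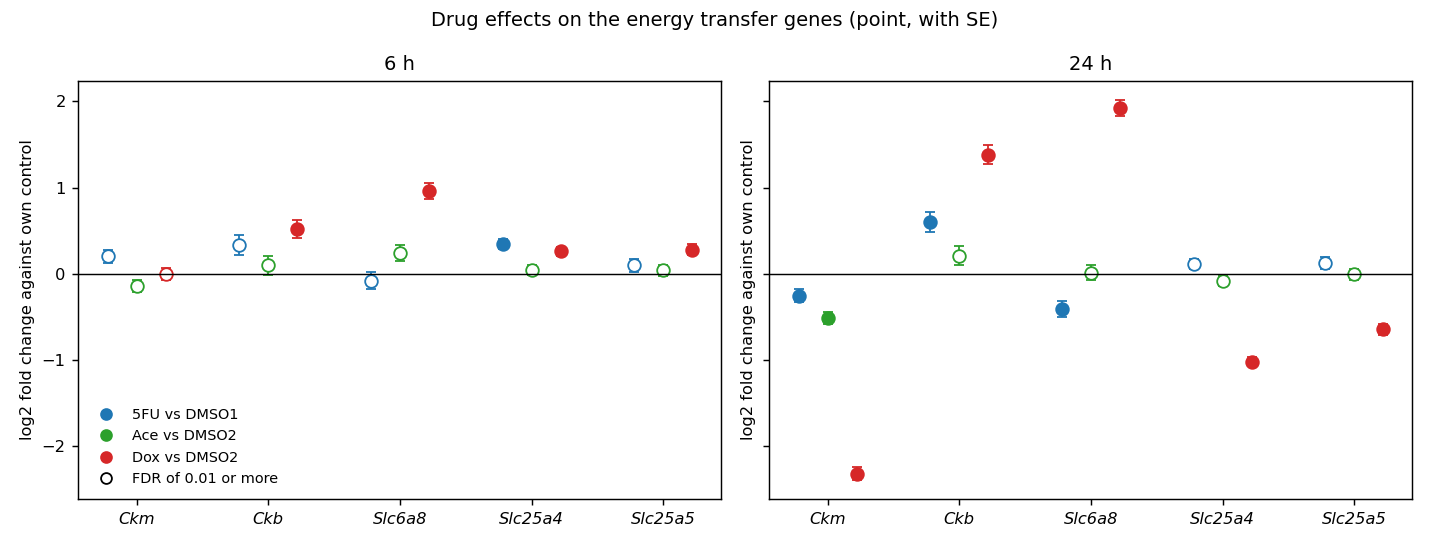
Log2 fold change of each drug group against its own control (y axis) for the 5 genes (x axis) at 6 and 24 h, with bars for the SE and open points for an FDR of 0.01 or more. At 24 h of Dox all points are filled, from -2.31 for Ckm to 1.92 for Slc6a8.

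Drugs were compared through the difference between their effects, each against its own control. At 24 h the Dox effect differed from the 5FU effect in 5 of 5 genes, where 71.1% of all genes were called, and from the Ace effect in 5 of 5, where 80.6% were. The Dox effect minus the 5FU effect was -2.06 (SE 0.10, FDR = 2.03e-27) for Ckm, -1.13 (SE 0.078, FDR = 1.14e-20) for Slc25a4 and -0.77 (SE 0.10, FDR = 1.21e-10) for Slc25a5, on the log2 scale. It was 0.78 (SE 0.16, FDR = 1.70e-05) for Ckb and 2.33 (SE 0.13, FDR = 1.61e-24) for Slc6a8. Slc6a8 thus moved in opposite directions under these drugs, as it fell under 5FU and rose under Dox. The Dox effect minus the Ace effect was -1.80 (SE 0.071, FDR = 4.59e-33) for Ckm, -0.94 (SE 0.053, FDR = 5.01e-25) for Slc25a4 and -0.64 (SE 0.066, FDR = 1.22e-13) for Slc25a5, and 1.17 (SE 0.11, FDR = 3.81e-15) for Ckb and 1.91 (SE 0.091, FDR = 9.64e-29) for Slc6a8. Between Ace and 5FU at 24 h 1 of 5 was called, where 37.3% of all genes were: Slc6a8, at 0.42 (SE 0.13, FDR = 0.00636). That call was lost without library 2 or 3 of 5FU, 1 or 4 of Ace, 2 or 5 of DMSO1, or 3, 5 or 6 of DMSO2 (values of 0.38 to 0.41, FDR = 0.0146, 0.0107, 0.0107, 0.0114, 0.0116, 0.0154, 0.0102, 0.0118, 0.0118). The lower Ckm of Ace than of 5FU, -0.26 (SE 0.10, FDR = 0.0273), missed the threshold, but passed it without library 7 of Ace, -0.33 (FDR = 0.00303), and without the 5 libraries that stood apart, -0.36 (FDR = 0.000539). Ckb, -0.39 (SE 0.16, FDR = 0.0383), passed it without the 3 libraries of 6 h with high Ckb, -0.38 (FDR = 5.25e-05), and in a fit of the compared groups alone, -0.39 (FDR = 9.71e-06). Slc25a4, -0.19 (SE 0.077, FDR = 0.0346), passed it in that fit too, -0.19 (FDR = 0.00534).

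At 6 h 1 of 5 was called between Dox and 5FU, where 45.9% of all genes were called: Slc6a8, at 1.04 (SE 0.13, FDR = 5.43e-10). Without library 1 of 5FU, Ckb, 0.40 (FDR = 0.00787), and Slc25a5, 0.27 (FDR = 0.00968), were called as well, against 0.18 (SE 0.16, FDR = 0.334) and 0.18 (SE 0.10, FDR = 0.10) with it. The value for Ckb was 0.016 (FDR = 0.934) without library 4 of Dox and 0.082 (FDR = 0.685) without library 4 of DMSO1, and was called at 0.43 (FDR = 0.00547) without the 5 libraries that stood apart. Ckm, -0.21 (SE 0.10, FDR = 0.0759), was called with library sizes alone, -0.28 (FDR = 0.00768). Between Dox and Ace 4 of 5 were called, where 62.1% of all genes were: Ckb, Slc6a8, Slc25a4 and Slc25a5, all higher with Dox, by 0.42, 0.72, 0.22 and 0.24 (FDR = 0.000853, 5.57e-10, 0.000416 and 0.00142). Ckb lost its call without library 4 of Dox, 0.25 (FDR = 0.0211), or in a fit of the compared groups alone, 0.42 (FDR = 0.0110). With library sizes alone Ckb, 0.29 (FDR = 0.0124), Slc25a4, 0.093 (FDR = 0.0912), and Slc25a5, 0.12 (FDR = 0.0712), were not called, and Slc6a8 was. Between Ace and 5FU 2 of 5 were called, where 30.9% of all genes were: Ckm at -0.34 (SE 0.10, FDR = 0.00525) and Slc25a4 at -0.30 (SE 0.079, FDR = 0.00177), both lower with Ace. The call of Ckm was lost without library 1, 2 or 5 of 5FU, 6 of Ace, 1 or 2 of DMSO1, or 1 of DMSO2 (values of -0.33 to -0.28, FDR = 0.0229, 0.0108, 0.0108, 0.0102, 0.0130, 0.0129, 0.0105). Slc25a4 lost its call in a fit of the compared groups alone, -0.31 (FDR = 0.0123). The call of Ckm also failed without the 3 libraries high in Ckb, -0.28 (FDR = 0.0259). Slc6a8, 0.32 (SE 0.13, FDR = 0.0501), was called without library 1 of 5FU, 0.47 (FDR = 0.00124), without the 5 libraries that stood apart, 0.48 (FDR = 0.00138), and without the 3 high in Ckb, 0.41 (FDR = 0.00285). Ace and Dox share the DMSO2 libraries, so their effects are not independent of each other.

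The change of effect from 6 to 24 h was called for 5 of 5 genes under Dox, where 64.8% of all genes were called. For 5FU 1 of 5 was called, where 39.5% were, and for Ace 1 of 5, where 11.6% were. In both of these the gene was Ckm. With library sizes alone the share called higher among all called genes went from 47.9% to 77.1% for the change of the Ace effect, from 52.5% to 64.8% for that of the Dox effect and from 49.4% to 36.7% between Dox and Ace at 6 h. The median of all genes moved from 0.065 to 0.27 for the change of the Dox effect and from 0.014 to -0.11 between Dox and Ace at 6 h. No called fold change of the 5 genes turned in sign under any alternative run.

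The other genes of the creatine pathway were few, and values for single genes here and in the next paragraphs are log2 fold changes. Of 4 measured genes of 5 listed, the number called higher was 1 and lower 2 under 5FU at 6 h, 0 and 1 under Ace at 6 h and 2 and 2 under Dox at 6 h. The same counts were 1 and 1 under 5FU at 24 h, 1 and 0 under Ace at 24 h and 1 and 3 under Dox at 24 h. Over all genes the shares called, in the order of these comparisons, were 47.9%, 31.7%, 64.2%, 55.8%, 37.2% and 81.4%. The list's median log2 fold change was -0.73 at 24 h of Dox, while the median of all genes was between -0.0094 and 0.0030 in the 6 drug comparisons. Ckmt1, the ubiquitous mitochondrial creatine kinase, rose under Dox with 2.05 (SE 0.17, FDR = 8.45e-17) at 6 h and 2.51 (SE 0.17, FDR = 1.98e-21) at 24 h. Gatm, the first enzyme of creatine synthesis, rose under Dox at 6 h, 0.72 (SE 0.12, FDR = 3.90e-07), and fell at 24 h, -0.43 (SE 0.13, FDR = 0.00189). Gamt, the enzyme that completes creatine, fell under Dox at 24 h, -1.04 (SE 0.069, FDR = 1.12e-21), as did Slc16a12, a membrane carrier of creatine, -1.82 (SE 0.093, FDR = 2.38e-27). Slc16a12 also fell under 5FU at 24 h, -1.72 (SE 0.10, FDR = 6.90e-23).

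Adenylate kinases rebalance ATP, ADP and AMP, and AMP deaminases remove AMP. Among 7 measured genes of 11 listed the calls higher and lower were 2 and 0 under 5FU at 6 h, 0 and 3 under Ace at 6 h and 4 and 1 under Dox at 6 h. After the longer exposure there were 3 and 1 under 5FU at 24 h, 0 and 3 under Ace at 24 h and 3 and 2 under Dox at 24 h. Of all genes 47.9%, 31.7% and 64.2% were called at 6 h (5FU, Ace, Dox) and 55.8%, 37.2% and 81.4% at 24 h. The list's median was 0.36 at 6 h and -0.012 at 24 h of Dox. The calls higher at 6 h of 5FU include Ak5, 3.37 (SE 0.60, FDR = 2.38e-06), which averaged only 0.16 CPM over all libraries, the lowest of the list. In this list 1 gene was at 0 in some library. Ak4, a mitochondrial matrix adenylate kinase, rose under Dox with 1.91 (SE 0.18, FDR = 1.87e-14) at 6 h and 3.08 (SE 0.18, FDR = 6.36e-25) at 24 h. Ak3, which uses GTP in the matrix, rose at 6 h of Dox, 0.36 (SE 0.045, FDR = 2.40e-10), and fell at 24 h, -0.56 (SE 0.045, FDR = 8.37e-18). The AMP deaminases parted under Dox at 24 h: Ampd2 rose, 1.99 (SE 0.070, FDR = 6.65e-36), and Ampd3 fell, -2.61 (SE 0.086, FDR = 2.96e-37). Ampd3 had risen with time in DMSO2, 0.91 (SE 0.078, FDR = 8.34e-16).

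Besides the 2 carriers, other proteins pass adenine nucleotides and phosphate across the mitochondrial membranes. The list made for them also holds Ppif and Tspo, which are not such carriers. Both were called higher at 24 h of Dox, Tspo with 0.41 (SE 0.054, FDR = 4.08e-10). Calls higher and lower, of 10 measured genes of 12 listed, were 7 and 2 under 5FU at 6 h, 1 and 2 under Ace at 6 h and 6 and 2 under Dox at 6 h. At the later time the numbers were 5 and 1 under 5FU at 24 h, 0 and 3 under Ace at 24 h and 3 and 7 under Dox at 24 h. The shares over all genes were 47.9%, 31.7% and 64.2% at 6 h (5FU, Ace, Dox) and 55.8%, 37.2% and 81.4% at 24 h. The list's median was 0.18 at 6 h and -0.48 at 24 h of Dox. The phosphate carrier Slc25a3 rose at 6 h of Dox, 0.31 (SE 0.041, FDR = 1.08e-09), and fell at 24 h, -0.42 (SE 0.041, FDR = 1.31e-14). The outer membrane channels fell at 24 h of Dox: Vdac1 with -0.55 (SE 0.046, FDR = 3.94e-17), Vdac2 with -0.76 (SE 0.053, FDR = 1.16e-20) and Vdac3 with -2.18 (SE 0.067, FDR = 5.29e-39). Ppif, the cyclophilin of the matrix, rose at 24 h of Dox, 2.06 (SE 0.079, FDR = 6.86e-34), as did Slc25a25, a calcium-regulated ATP-Mg and phosphate carrier, 2.43 (SE 0.13, FDR = 7.23e-26). At 6 h of 5FU, where Slc25a4 rose, Vdac1 rose as well, 0.29 (SE 0.049, FDR = 8.58e-07).

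Nucleoside diphosphate kinases pass phosphate from ATP to other nucleotides. Of 6 measured genes of 6 listed, the number called higher was 2 and lower 1 under 5FU at 6 h, 0 and 1 under Ace at 6 h and 2 and 3 under Dox at 6 h. The same counts were 3 and 0 under 5FU at 24 h, 0 and 1 under Ace at 24 h and 2 and 3 under Dox at 24 h. Among all genes 47.9%, 31.7% and 64.2% were called at 6 h (5FU, Ace, Dox) and 55.8%, 37.2% and 81.4% at 24 h. The list's median at 24 h of Dox was -0.56. Nme1 rose at 24 h of Dox, 0.90 (SE 0.066, FDR = 1.09e-19), and Nme2 too, 0.47 (SE 0.062, FDR = 4.07e-10), while Nme6 fell, -1.70 (SE 0.079, FDR = 2.37e-29). In DMSO2 Nme1 fell from 6 to 24 h, -1.01 (SE 0.066, FDR = 9.26e-21).

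AMP-activated protein kinase senses a rise of AMP and ADP. Among 7 measured genes of 8 listed the calls higher and lower were 2 and 2 under 5FU at 6 h, 2 and 2 under Ace at 6 h and 0 and 4 under Dox at 6 h. After the longer exposure there were 1 and 3 under 5FU at 24 h, 1 and 2 under Ace at 24 h and 0 and 5 under Dox at 24 h. Calls over all genes made up 47.9%, 31.7% and 64.2% at 6 h (5FU, Ace, Dox) and 55.8%, 37.2% and 81.4% at 24 h. The list, which also holds its upstream kinase Stk11, had a median of -0.72 at 24 h of Dox. The catalytic subunits Prkaa1 and Prkaa2 fell in that comparison, with -0.72 (SE 0.051, FDR = 1.64e-20) and -0.83 (SE 0.069, FDR = 3.04e-17), as did the regulatory subunit Prkag2, -1.18 (SE 0.069, FDR = 2.17e-24). Prkag2 also fell at 24 h of 5FU, -1.15 (SE 0.075, FDR = 1.16e-20), and of Ace, -0.42 (SE 0.067, FDR = 2.65e-07).

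A further list held transcription factors and coactivators known to act on muscle energy genes. Calls higher and lower, of 12 measured genes of 12 listed, were 0 and 5 under 5FU at 6 h, 1 and 6 under Ace at 6 h and 1 and 10 under Dox at 6 h. At the later time the numbers were 2 and 4 under 5FU at 24 h, 0 and 3 under Ace at 24 h and 1 and 9 under Dox at 24 h. Under Dox 64.2% of all genes were called at 6 h and 81.4% at 24 h, of which 49.1% and 49.7% were higher. The shares of all genes called were 47.9% and 55.8% for 5FU and 31.7% and 37.2% for Ace. The list's median was -0.77 at 6 h and -1.14 at 24 h of Dox. The coactivator Ppargc1a fell under Dox with -1.72 (SE 0.073, FDR = 1.22e-30) at 6 h and -2.18 (SE 0.074, FDR = 1.06e-36) at 24 h. Mef2c fell with -0.99 (SE 0.062, FDR = 3.09e-22) and -2.50 (SE 0.067, FDR = 2.72e-42), and Esrrg with -0.76 (SE 0.083, FDR = 2.20e-12) and -1.39 (SE 0.084, FDR = 1.17e-23). Tfam, which maintains mitochondrial DNA, rose at both times, with 0.16 (SE 0.048, FDR = 0.00253) and 0.48 (SE 0.048, FDR = 2.71e-14). Esrra was not called under Dox, -0.19 (SE 0.075, FDR = 0.0213) at 6 h and -0.030 (SE 0.075, FDR = 0.714) at 24 h. At 24 h of Ace, where Ckm fell, Ppargc1a fell with -0.33 (SE 0.067, FDR = 3.03e-05) and Mef2c with -0.30 (SE 0.060, FDR = 2.54e-05). Both fell further where Ckm was not called. At 6 h of 5FU they fell with -1.08 (FDR = 3.21e-19) and -0.82 (FDR = 1.12e-16). At 6 h of Ace the values were -0.51 (FDR = 2.12e-08) and -0.44 (FDR = 5.45e-08). A link between these factors and Ckm was not tested.

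The label of the cells was checked against marker lists. Of 13 cardiomyocyte markers 12 have a row, none at 0 in any library, and Myh6 had the highest CPM averaged over all libraries. Such ranks within a marker list carry no correction for transcript length and need not hold in each group: in Dox at 24 h Myh6 averaged 1029 CPM of a mean sum of 32798 CPM. Their summed level was 58087 to 85082 CPM (median 73080) in DMSO1 and 53111 to 57278 CPM (median 55237) in DMSO2 at 6 h. With drug at 6 h it was 62378 to 88282 CPM (median 71778) for 5FU, 56210 to 60358 CPM (median 57402) for Ace and 56889 to 75302 CPM (median 70601) for Dox. Cardiomyocyte transcripts were thus abundant in every group, and the sum was higher in DMSO1 than in DMSO2 at 6 h without overlap. At 24 h it was 46028 to 50800 CPM (median 49203) in DMSO1, 37432 to 41171 CPM (median 38286) in 5FU, 45859 to 58062 CPM (median 53603) in DMSO2, 46641 to 62714 CPM (median 52737) in Ace and 27718 to 37709 CPM (median 32028) in Dox. The sums of 5FU and Dox at 24 h lay below their controls. Of 12 measured genes of 13 listed, the number called higher was 2 and lower 2 under 5FU at 6 h, 0 and 1 under Ace at 6 h and 7 and 3 under Dox at 6 h. The same counts were 2 and 6 under 5FU at 24 h, 2 and 3 under Ace at 24 h and 1 and 9 under Dox at 24 h. Of all genes 47.9%, 31.7% and 64.2% were called at 6 h (5FU, Ace, Dox) and 55.8%, 37.2% and 81.4% at 24 h. At 24 h of Dox Myh6 fell with -4.13 (SE 0.11, FDR = 2.00e-41) and Tnnt2 with -0.21 (SE 0.055, FDR = 0.000382), Myl2 was not called, 0.026 (SE 0.072, FDR = 0.732), and Nppa, the atrial natriuretic peptide, rose with 3.52 (SE 0.17, FDR = 2.55e-28).

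Markers of other cell types were present too. All 10 fibroblast markers have a row, with Col1a1 the highest on average over all libraries, and their sum at 24 h was 10939 to 21409 CPM (median 17893) in DMSO1, 5782 to 6376 CPM (median 6209.9) in 5FU, 16955 to 20678 CPM (median 18451) in DMSO2, 8378 to 10361 CPM (median 8831) in Ace and 2523 to 4857 CPM (median 4303) in Dox. Each drug group lay below its control at 24 h. At 6 h the sum was 8201 to 12639 CPM (median 10794) in DMSO1, 7691 to 12229 CPM (median 10089) in 5FU, 11643 to 16332 CPM (median 14449) in DMSO2, 9082 to 12441 CPM (median 11128) in Ace and 9651 to 12093 CPM (median 10687) in Dox. Over all genes 47.9% were called under 5FU at 6 h, 31.7% under Ace and 64.2% under Dox. Among 10 measured genes of 10 listed the calls higher and lower were 0 and 2 under 5FU at 6 h, 0 and 6 under Ace at 6 h and 0 and 6 under Dox at 6 h. After the longer exposure there were 0 and 10 under 5FU at 24 h, 0 and 10 under Ace at 24 h and 0 and 10 under Dox at 24 h. So at 24 h 10 of 10 fibroblast markers were lower under each drug, where 55.8% of all genes were called under 5FU, 37.2% under Ace and 81.4% under Dox in either direction. Ckm fell in the same comparisons. Their part in the result was not tested.

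Of 8 endothelial markers 7 have a row, with Cdh5 the highest on average over all libraries, and their sum at 24 h was 197 to 288 CPM (median 249) in DMSO1, 137 to 165 CPM (median 161) in 5FU, 261 to 340.0 CPM (median 300.5) in DMSO2, 152 to 263 CPM (median 193) in Ace and 24.9 to 54.7 CPM (median 43.9) in Dox. Its medians at 6 h were 184, 173, 262, 194 and 98.9 CPM in the same order. Calls higher and lower, of 7 measured genes of 8 listed, were 0 and 2 under 5FU at 6 h, 0 and 3 under Ace at 6 h and 0 and 7 under Dox at 6 h. At the later time the numbers were 0 and 5 under 5FU at 24 h, 0 and 5 under Ace at 24 h and 0 and 7 under Dox at 24 h. All 8 macrophage markers have a row, with Lyz2 the highest on average over all libraries, and their sum at 24 h was 98.6 to 128 CPM (median 119) in DMSO1, 89.5 to 104 CPM (median 93.0) in 5FU, 102 to 125 CPM (median 119.8) in DMSO2, 70.9 to 88.4 CPM (median 83.3) in Ace and 47.2 to 64.7 CPM (median 60.4) in Dox, with medians at 6 h of 61.9, 59.9, 65.2, 56.3 and 72.7 CPM in the same order. Under Dox at 24 h 7 of 7 endothelial markers and 7 of 8 macrophage markers were lower, where 81.4% of all genes were called in either direction. In the other drug comparisons the share over all genes was 47.9% at 6 h and 55.8% at 24 h of 5FU, 31.7% at 6 h and 37.2% at 24 h of Ace, and 64.2% at 6 h of Dox. Of 8 measured genes of 8 listed, the number called higher was 1 and lower 2 under 5FU at 6 h, 0 and 2 under Ace at 6 h and 3 and 1 under Dox at 6 h. The same counts were 0 and 3 under 5FU at 24 h, 0 and 6 under Ace at 24 h and 1 and 7 under Dox at 24 h.

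All 5 smooth muscle markers have a row, with Acta2 the highest on average over all libraries, although it averaged 78.0 CPM of a mean sum of 502 CPM in 5FU at 24 h. Their sum at 24 h was 539 to 806 CPM (median 623) in DMSO1, 418 to 609 CPM (median 479) in 5FU, 552 to 734 CPM (median 639) in DMSO2, 391 to 639.7 CPM (median 482) in Ace and 521 to 1726 CPM (median 1535) in Dox. At 6 h it was 984 to 4251 CPM (median 2634) in DMSO1, 1375 to 2709.7 CPM (median 2048) in 5FU, 817 to 1202 CPM (median 898) in DMSO2, 681 to 848 CPM (median 737) in Ace and 1106 to 3269.9 CPM (median 2874) in Dox. These sums varied widely among libraries of DMSO1 and Dox at 6 h. Among 5 measured genes of 5 listed the calls higher and lower were 1 and 1 under 5FU at 6 h, 0 and 0 under Ace at 6 h and 4 and 1 under Dox at 6 h. After the longer exposure there were 2 and 3 under 5FU at 24 h, 0 and 3 under Ace at 24 h and 4 and 0 under Dox at 24 h. The shares over all genes were 47.9%, 31.7% and 64.2% at 6 h (5FU, Ace, Dox) and 55.8%, 37.2% and 81.4% at 24 h. Of the 5 libraries that stood apart over all genes, library 3 of DMSO1 at 6 h, library 1 of DMSO1 at 24 h and libraries 7 of Ace and Dox at 24 h had the lowest sum of their groups, and library 1 of 5FU at 6 h the highest. This was not particular to smooth muscle markers. In the cardiomyocyte sum the same libraries of DMSO1 and Dox were lowest in their groups, at 58087, 46028 and 27718 CPM. Those of Ace and 5FU were highest there, at 62714 and 88282 CPM. In the fibroblast sum library 1 of DMSO1 at 24 h, library 1 of 5FU and library 7 of Dox were lowest, and those of DMSO1 at 6 h and Ace were not at an end. Several smooth muscle genes are also expressed in immature cardiomyocytes and in fibroblasts.

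Of 6 erythroid markers 3 have a row, with Hba-a1 the highest on average over all libraries, and their sum at 24 h was 19.3 to 31.6 CPM (median 25.7) in DMSO1, 46.2 to 74.1 CPM (median 60.1) in 5FU, 10.7 to 23.2 CPM (median 19.4) in DMSO2, 12.1 to 34.7 CPM (median 17.9) in Ace and 41.4 to 78.5 CPM (median 61.8) in Dox, with medians at 6 h of 33.3, 54.8, 32.1, 45.9 and 85.4 CPM in the same order. Calls higher and lower, of 3 measured genes of 6 listed, were 0 and 0 under 5FU at 6 h, 0 and 0 under Ace at 6 h and 3 and 0 under Dox at 6 h. At the later time the numbers were 3 and 0 under 5FU at 24 h, 0 and 0 under Ace at 24 h and 3 and 0 under Dox at 24 h. Among all genes 47.9%, 31.7% and 64.2% were called at 6 h (5FU, Ace, Dox) and 55.8%, 37.2% and 81.4% at 24 h. Of all these markers 1 endothelial gene was at 0 in some library, and 0 were at 0 in every library. The part of each of these lists in the results on the 5 genes was not tested.

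Across the 10 group means of log2 CPM the 2 carriers varied together (Pearson r = 0.87), Ckm and Ckb in opposite directions (-0.82), and Slc6a8 opposite to Slc25a4 (-0.82). These values describe 10 groups that share a preparation, the controls among them, and have no p. Dox at 24 h lay at an end of the order of means for each of the 5 genes, and correlations without that group were not computed. At 6 h of Dox Slc6a8 and Slc25a4 both rose, with log2 fold changes of 0.96 and 0.26. Among 10504 other named genes averaging 100 counts or more, the closest in pattern to Ckm were Nubpl (r = 0.986), Txlnb (r = 0.984) and Scpep1 (r = 0.982), and to Ckb Eif1ad (r = 0.980), Med19 (r = 0.977) and Eif3b (r = 0.976). Closest to Slc6a8 were Heca (r = 0.996), Edem1 (r = 0.988) and Mlxip (r = 0.988). Slc25a4 was closest to Ndufa8 (r = 0.996), Atp5pb (r = 0.994) and Vdac2 (r = 0.994), which include a complex I subunit, an ATP synthase subunit and an outer membrane channel, and Slc25a5 to Aimp1 (r = 0.988), Mrpl18 (r = 0.986) and Mpc1 (r = 0.983).

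The regions before the gene starts were read because Ckm and Ckb, subunits of the same enzyme, moved in opposite directions. RefSeq promoter windows of the assembly GRCr8 match 6 of the 7 listed genes, Ak1 being the one without, and the 250 bases before the start used there were searched on both strands for 6 motifs. These were the E-box CANNTG, present in 65.5% of all 33469 windows of that length, the TATA box TATAAA (12.9%), the GC box GGGCGG (30.5%), the ERR half-site AAGGTCA (3.99%), the MEF2 core TAAAAATA (2.44%) and the GATA motif AGATAA (10.3%). Ckm held 3 E-boxes and no other match, and Ckb a TATA box and no other. Slc6a8 held 1 E-box and 1 GC box, Slc25a4 a GATA match alone, Slc25a5 2 E-boxes and 3 GC boxes, and Ckmt2 2 E-boxes and 1 GC box. The windows of the creatine kinase pair follow, 5′ to 3′ on the strand of the gene with the matches in capitals, for Ckm at chr1:88189211-88189460 on the plus strand and for Ckb at chr6:136553465-136553714 on the minus strand.
Ckm: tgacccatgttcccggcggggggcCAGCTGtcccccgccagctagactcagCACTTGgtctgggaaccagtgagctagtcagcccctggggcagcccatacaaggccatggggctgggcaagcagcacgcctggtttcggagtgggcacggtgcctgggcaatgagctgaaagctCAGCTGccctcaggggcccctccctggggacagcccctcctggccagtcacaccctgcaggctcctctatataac
Ckb: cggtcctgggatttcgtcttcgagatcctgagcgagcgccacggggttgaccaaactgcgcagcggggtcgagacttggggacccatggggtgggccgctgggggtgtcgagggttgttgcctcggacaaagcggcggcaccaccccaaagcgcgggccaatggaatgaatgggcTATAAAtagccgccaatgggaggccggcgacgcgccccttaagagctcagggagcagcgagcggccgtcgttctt
A match is a run of letters and does not show that a factor binds there.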

How the data were processed

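PolyA RNA was sequenced from 65 cultures in 10 groups. According to the paper, the authors assigned reads to rat transcripts with kallisto (version 0.46.0), brought them to the level of Entrez genes with tximport and left out weakly counted genes. The deposited table holds these estimated counts, not normalized and already whole, so that rounding changed nothing. Genes needed 10 counts in 1 library or more, which removed 0. Symbols came from the annotation of GRCr8, which names 14009 of 14554 identifiers, and were used for names only.

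Groups were taken from the labels. The columns name a group but no replicate. Counts were scaled with TMM (factors 0.859 to 1.07), and edgeR (version 4.0.16, R 4.3.3) fitted 1 quasi-likelihood model with 10 group terms to all libraries. P-values were adjusted by the Benjamini-Hochberg method over all genes, and SEs were derived from the F statistic. The 95% intervals are normal intervals from these SEs. Libraries of a group were compared in 180 pairs, and the lowest chi-square value divided by the number of genes was 2.84, where sampling alone gives about 1, so no pair was treated as a library counted again. The fit was tested on simulated counts.

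The genes named are the listed members, genes of fixed lists, and for each member the 3 genes with the highest Pearson correlation of mean log2 CPM over the groups. The members and lists were chosen with earlier results of these data known. Levels of the 5 genes were not compared with each other, since transcript lengths were not used here. Alternatives were DESeq2 (version 1.42.0), its size factors, library sizes alone, filterByExpr, no filter, the compared groups alone, an FDR below 0.1 and leaving out each library. Leaving out sets of libraries that stood apart was added after seeing the data. Results for some listed genes and 1 marker list are not reported here.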

Additional observations from a re-analysis of the deposited data

Results flagged for a closer look

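In 8 of 50 combinations of gene and group the highest or lowest library lay far from the rest by Dixon's ratio, the gap to the nearest library over the whole range of log2 CPM. Chance flags about 1 in 20 groups. Of these, 5 concern Ckb. Library 4 of DMSO1 at 6 h was highest at 433 CPM, next to 319 CPM (ratio 0.746). Library 1 of 5FU at 6 h was highest at 685 CPM, next to 381 CPM (ratio 0.761), and library 4 of Dox at 6 h at 631 CPM, next to 389 CPM (ratio 0.680). Library 2 of Ace at 6 h was lowest at 262 CPM, next to 282 CPM (ratio 0.782), and library 4 of 5FU at 24 h at 279 CPM, next to 290.1 CPM (ratio 0.784).

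Slc6a8 was highest in library 1 of 5FU at 6 h, at 150.2 CPM against 101 CPM for the next (ratio 0.667). Slc25a4 was lowest in library 1 of DMSO1 at 6 h, at 2068 CPM against 2262 CPM (ratio 0.673). Slc25a5 was highest in library 5 of DMSO2 at 24 h, at 429 CPM against 392 CPM (ratio 0.581).

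The effect of a drug differed between 24 and 6 h in 7 of 15 tests of that difference (log2, 24 h minus 6 h), of which 5 were under Dox. Over all genes 39.5% were called for 5FU, 11.6% for Ace and 64.8% for Dox. For Ckm the difference was -0.46 under 5FU, -0.38 under Ace and -2.31 under Dox. Under Dox it was 0.86 for Ckb, 0.96 for Slc6a8, -1.28 for Slc25a4 and -0.92 for Slc25a5.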

How the results depend on the processing

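No paired analysis was possible because the columns of the table carry no replicate numbers. No fold change of the 5 genes that was called turned in sign under any alternative run, and the cause of the changes listed here was not tested.

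For 5FU against DMSO1 at 6 h, 3 of the 5 genes were called with DESeq2 and at an FDR below 0.1, and 2 with DESeq2 size factors, filterByExpr or without the high Ckb libraries, in place of 1. Leaving out 1 library gave 1 to 3. For Ace against DMSO2, a fit of the compared groups alone called 2 at 6 h and 2 at 24 h, an FDR below 0.1 called 1 at 6 h, and 2 were called at 24 h without the high Ckb libraries. For Dox at 6 h library sizes alone called 2 in place of 4. Between the controls at 6 h library sizes alone called 1, and an FDR below 0.1 or leaving out the libraries that stand apart 2. At 24 h an FDR below 0.1 called 1.

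For the change of the 5FU effect with time, DESeq2 and either set of libraries left out called 2, an FDR below 0.1 called 3, and leaving out 1 library gave 1 to 2. For Ace library sizes alone called 0. Between Dox and 5FU at 6 h library sizes alone, an FDR below 0.1 and leaving out the libraries that stand apart each called 2, and leaving out 1 library gave 1 to 3. Between Dox and Ace at 6 h library sizes alone called 1. Between Ace and 5FU the compared groups alone called 1 at 6 h and 3 at 24 h, an FDR below 0.1 called 4 at 24 h, either set of libraries left out called 2 at 24 h, and leaving out 1 library gave 1 to 2 at 6 h and 0 to 2 at 24 h.

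Over all genes, the controls at 24 h gave 181 calls with DESeq2, 17 with those groups alone, 764 at an FDR below 0.1, 122 without the high Ckb libraries and 10 to 162 with 1 library left out, in place of 63. At 6 h the controls gave 1565 with those groups alone and 4751 at an FDR below 0.1, in place of 2397. An FDR below 0.1 gave 7120 for Ace at 6 h, 3867 for the change of the Ace effect with time (2684 with its groups alone) and 7017 between Ace and 5FU at 6 h. Leaving out each library was run for the comparisons that use its group.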

Other observations

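The 3 libraries with high Ckb at 6 h were also high in other genes. The 4 genes given here lie outside the fixed lists and were chosen after their values were seen. Bnip3, a mitophagy receptor, stood at 342 CPM against 71.3 to 103 in the other libraries of DMSO1, at 668 CPM against 83.4 to 121 in 5FU and at 759.8 CPM against 136 to 168 in Dox. Eno2, a glycolytic enolase, stood at 256 CPM against 64.7 to 95.4, 479.8 CPM against 70.4 to 97.7 and 573 CPM against 86.6 to 101 in the same order. Pdk1, which inhibits pyruvate dehydrogenase, stood at 95.2 CPM against 38.5 to 53.9, 184 CPM against 41.6 to 61.7 and 212 CPM against 54.6 to 75.3. Pygl, a glycogen phosphorylase, stood at 29.5 CPM against 9.80 to 14.6, 49.3 CPM against 9.97 to 13.6 and 54.5 CPM against 13.9 to 17.6. In all 3 libraries each of these 4 genes lay above every other library of its group. The labels give no property of these cultures that sets them apart.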
